A study of Homo sapiens with 6 samples.

Results

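In A172 cells, an established human glioblastoma line, 74 of the 20514 genes measured had fallen at least 2-fold with an siRNA against ADAR1 and had regained little or nothing when an siRNA against Staufen1 was added. They are called the unrescued genes here. Each gene is a row of the deposited table, which groups UCSC transcripts of the human build hg19, and the 74 rows hold 190 of the 65739 transcript IDs. A row was chosen by its counts per 1000000 reads of its library (CPM), averaged over the 2 libraries of a group, with 0.1 CPM added. It had to reach 2 in the control, to fall at least 2-fold with the ADAR1 siRNA, and to have a recovery under 0.25. Recovery is the log2 rise from the ADAR1 siRNA to both siRNAs, as a share of the log2 fall from the control to the ADAR1 siRNA. By the rule, 1 further row, identified only by its UCSC IDs uc001ffh and uc001ffj, was left out.

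The study profiled 3 groups of 2 libraries by RNA-seq. One group was transfected with siControl, one with siADAR1, and one with siADAR1 and siStaufen1, called the combined knockdown here. The label on treatment is shared by all 6 libraries and also describes a plasmid for HA-tagged STAU1 transfected on the day after the siRNA. It does not mention siStaufen1, so the groups are named by their transfection labels alone. None of the 3 groups had siStaufen1 alone, so that siRNA is measured only on top of siADAR1. Library totals ran from 20291057 to 29508632 reads. Nothing in the labels says that the 2 libraries of a group came from separate cultures, so their spread may be technical. These are bulk libraries, in which fewer cells expressing a gene and less of its RNA per cell cannot be told apart.

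ADAR1 is an RNA-editing enzyme that turns adenosines in double-stranded stretches of transcripts into inosines. Staufen1 is a protein that binds double-stranded RNA, among other places in 3′ untranslated regions, and can bring about the decay of the mRNA it is bound to, a process known as Staufen-mediated decay. The title of the series names inhibition of that decay as a function of ADAR1 in stressed cells. The files do not pair UCSC IDs with gene names, and no member row matched the RefSeq gene table by its synonyms. The cell line's marker genes and the siRNA targets were therefore not checked, no sequence is shown, and the unrescued genes are described by their levels, their falls and the make-up of their rows. Only 4 of them are printed by the first ID of their row, chosen by a fixed rule of level and change.

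The values that chose the genes are given first, as a description. Of the 11479 rows that reached the control threshold, 349 others than the row left out had fallen at least 2-fold with siADAR1. Among these, 74 (21.2%) were unrescued, 72 (20.6%) had a recovery from 0.25 to 0.5 and are called partly rescued, and 203 (58.2%) had a recovery of 0.5 or more and are called largely rescued. The unrescued genes had a median log2 change of -1.32 with siADAR1 (quartiles -1.63 and -1.11), which left 40.2% of the control level. In the combined knockdown their median log2 change against siADAR1 was 0.11 (quartiles -0.23 and 0.21), and the median against siControl was -1.30. Over all 11479 rows the same medians were 0.28, -0.11 and 0.16.

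**Figure D1:**
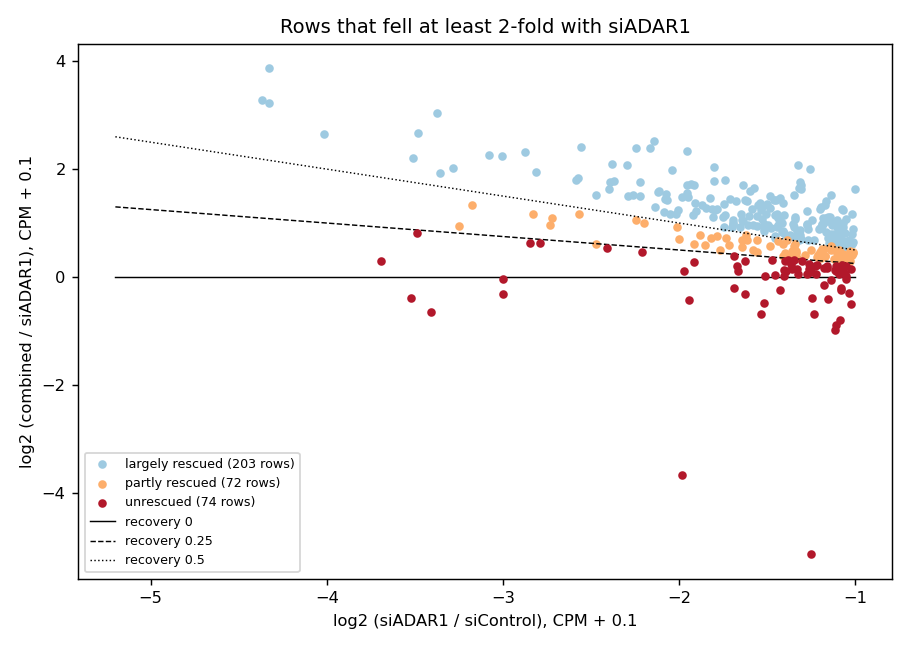
Each point is 1 of the 349 rows that fell at least 2-fold with siADAR1. The horizontal axis is the log2 ratio of siADAR1 to siControl, the vertical axis that of the combined knockdown to siADAR1, both from mean CPM plus 0.1, and the 3 lines mark recoveries of 0, 0.25 and 0.5. The 74 unrescued genes fill the band under the line for 0.25, with 25 below the line for 0 and 2 far below it.

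How many genes meet the rule depends on the scaling. With library totals the median of all rows above the threshold stood at 0.28 for siADAR1 against siControl and at -0.11 for the combined knockdown against siADAR1, whereas with TMM factors, which assume that most genes do not change, the 2 medians stood at 0.00 and 0.01. Under TMM scaling 689 rows fell at least 2-fold and 140 of them, including 71 of the 74, met the rule. The 74 genes themselves had medians of -1.60 and 0.21 under TMM, and a median recovery of 12.3% in place of 7.42%.

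The thresholds cut through a continuous range. At the control threshold, the member with the fewest reads had 1.93 CPM in siControl, and the row next outside had 1.78 CPM. At the fall threshold, the member closest to it had a log2 change of -1.02, and the row next outside went from 2.07 to 0.988 CPM, just short of 2-fold with 0.1 CPM added. At the recovery threshold, the member closest to it had a recovery of 23.2%, and the row next outside had 25.1%.

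The unrescued genes covered a wide range of levels. Their siControl levels ran from 1.93 to 1300 CPM with a median of 19.6 CPM (quartiles 8.37 and 57.3), and over all rows above the threshold the median was 19.6 CPM (quartiles 6.93 and 57.3). CPM is not divided by transcript length, so an order by CPM is an order of read share and not of transcript number. Of the 2-fold fallers from 2 up to 5 CPM (with 0.1 added), 14 of 65 (21.5%) were unrescued. The shares were 24 of 94 (25.5%) from 5 up to 20 CPM, 24 of 115 (20.9%) from 20 up to 100 CPM, and 12 of 75 (16.0%) from 100 CPM upward. The unrescued share thus lay between 16.0% and 25.5% in every range of read share.

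Together the 74 genes took 0.651% and 0.640% of the reads in the siControl libraries a and b, 0.228% and 0.229% in the siADAR1 libraries, and 0.235% and 0.236% in the combined knockdown libraries. Both knockdown groups lay near 0.23%, well below siControl, and the libraries of a group were close to each other. A single gene supplied 20.2% and 20.1% of the siControl sum. The sum of the other 73 was 5160 ± 54.0 CPM for siControl (SD, n = 2). It was 2120 ± 9.09 CPM for siADAR1 and 2200 ± 12.6 CPM with both siRNAs (SD, n = 2 for each).

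That gene, in the row of 4 transcripts that opens with uc001rux.2, had the highest read share of all unrescued genes in siControl. It stood at 1320 and 1280 CPM in the siControl libraries, at 162 and 163 CPM in the siADAR1 libraries, and at 161 and 154 CPM in the combined knockdown libraries. The siControl libraries were far above the 4 others, and the combined knockdown libraries were just below the siADAR1 libraries. The means of uc001rux.2 were 1300 ± 23.6, 162 ± 0.238 and 157 ± 4.57 CPM (SD, n = 2 each), a fall of 8.0-fold with siADAR1 (log2 -3.00) and a log2 difference of -0.05 between the knockdown groups. Under TMM scaling the latter turned to 0.07, so its sign is set by the scaling, while the fall was then -3.28. At least 3936 reads stood behind each of its values.

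The 8 genes next in read share, from 639 down to 230 CPM in siControl, had fallen 2.04- to 2.65-fold with siADAR1, near the 2-fold the rule asked for. Of these, 6 were higher in the combined knockdown than in siADAR1, by log2 differences of 0.05 to 0.22, and 2 were lower, by -0.14 and -0.79. The gene ranked second, in a row of 7 transcripts, shows the type, with 642 and 636 CPM in the siControl libraries, 301 and 304 CPM in the siADAR1 libraries, and 350 and 356 CPM in those of the combined knockdown. Its 3 groups did not overlap, and its recovery was 20.5%. These 9 genes with the largest read share held 71.5% and 71.9% of the summed CPM of all 74 in siControl, and 72.6% and 72.7% in the combined knockdown.

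**Figure D2:**
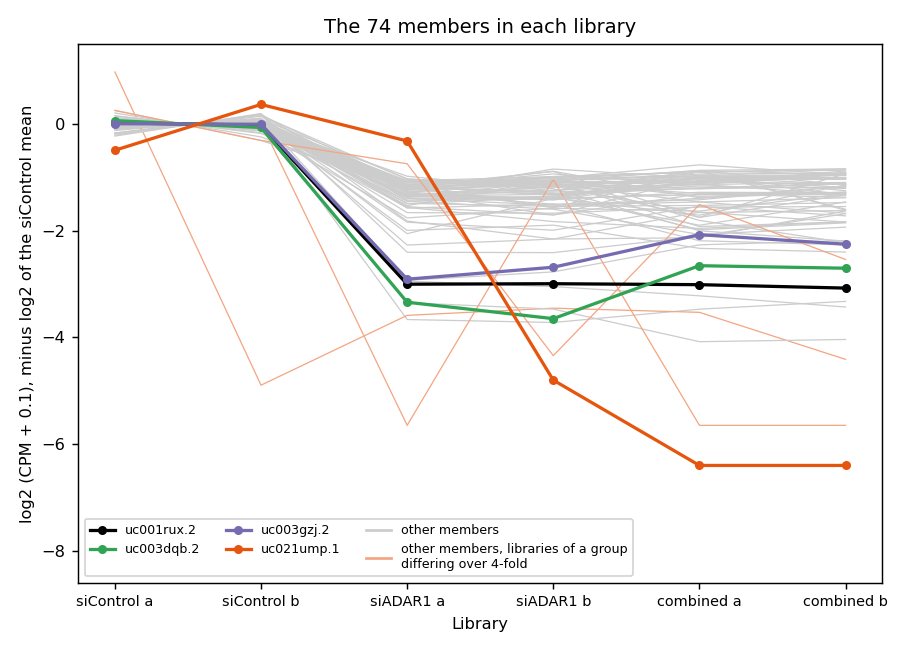
Each line is 1 of the 74 unrescued genes and joins its values in the 6 libraries, as log2 of CPM plus 0.1 minus log2 of the siControl mean. The horizontal axis lists the libraries, and the 4 genes printed by ID are in strong colours. Most lines lie near -1 to -2 in the 4 knockdown libraries, uc001rux.2 stays near -3.00, and 4 genes whose libraries differ over 4-fold within a group cross the others.

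Deep falls were few among the unrescued genes. With siADAR1, 51 of the 74 fell by a log2 change between -1 and -1.5, 13 by up to -2, and 10 by -2 or more, that is at least 4-fold. Of all rows that fell by 1 up to 1.5 on the log2 scale, 51 of 204 were unrescued, and it was 13 of 84 (15.5%) from 1.5 up to 2, 4 of 42 (9.52%) from 2 up to 3, and 6 of 19 (31.6%) from 3 upward. Over these ranges the unrescued share followed no single direction, but the last range holds few rows. Some of its 6 unrescued genes lie at its edge (log2 -3.00), and 1 owes its fall to a single siControl library. Split at 4-fold alone, the share was 64 of 288 (22.2%) for the lesser falls and 10 of 61 (16.4%) for the deeper ones. In 4 of these 10 genes the combined knockdown stood below siADAR1, and in 6 above.

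The 10 deep falls ended on both sides of their siADAR1 level. By the edgeR test described below, none of those below it was called lower than siADAR1, where 21.5% of the genes tested were. Most of those above it were called higher, where 21.7% of the genes tested were. The split used the sign of this same contrast, and these shares are of genes of either sign, so nothing is read from the calls. The split was also made on library totals and the test on TMM-scaled counts. In the edgeR model uc001rux.2, counted here as below, stood above siADAR1 (log2 0.07). A gene in a row of 2 transcripts had 104 and 101 CPM in its siControl libraries. It had 13.2 and 12.3 CPM with siADAR1 and 10.9 and 9.41 CPM with both siRNAs. It fell 8.0-fold, as uc001rux.2 did, and its combined knockdown libraries lay below both siADAR1 libraries. A gene in a row of 3 transcripts stood at 53.7 and 60.6 CPM, then 4.41 and 4.24 CPM, then 5.06 and 5.61 CPM. It lost 12.9-fold with siADAR1, the largest loss of all 74, and had a recovery of 8.02%. Another, also in a row of 3 transcripts, went from 13.5 and 11.8 CPM to 1.15 and 1.05 CPM and then to 0.653 and 0.675 CPM, which left it at a log2 change of -4.06 against siControl.

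The largest log2 rises under the limit of 0.25 belong to deep falls, since the limit is a share of the fall. The gene uc003dqb.2, in a row of 7 transcripts, had 102 and 93.3 CPM with siControl, 9.54 and 7.69 CPM with siADAR1, and 15.4 and 14.9 CPM with both siRNAs. The combined knockdown libraries of uc003dqb.2 were both above the siADAR1 libraries and far under the siControl libraries. It had lost 11.2-fold and stood 1.75-fold higher than siADAR1 in the combined knockdown, a recovery of 23.1%. The gene uc003gzj.2, in a row of 2 transcripts, stood at 94.2 and 93.5 CPM, then 12.4 and 14.5 CPM, then 22.2 and 19.6 CPM. Its groups did not overlap either. It had lost 6.92-fold and stood 1.55-fold higher in the combined knockdown, a recovery of 22.5%. So both had risen, but to only 15.6% and 22.3% of the control level.

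The agreement of the libraries was then examined gene by gene. Both siADAR1 libraries lay below both siControl libraries in 72 of the 74 genes, where 26.3% of all rows above the threshold had such a fall without overlap. By edgeR's quasi-likelihood test, with p-values adjusted by Benjamini-Hochberg over all 14711 genes tested and a threshold of 0.05, 73 of the 74 were called lower with siADAR1, against 29.7% of the genes tested. All 74 passed the filter on low counts. The rule used this contrast, so neither count says anything about these genes beyond their choice. In the combined knockdown, 73 of 74 had both libraries below both siControl libraries (28.1% of all rows), and 74 were called lower than siControl (25.8% of the genes tested). These counts too follow from the rule, which keeps the combined knockdown well below siControl.

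In 4 of the 74 genes (5.41%) the 2 libraries of some group differed over 4-fold, against 13 of all 11479 rows (0.113%). The rule can take in such rows readily, since 1 outlying library can make a 2-fold fall or a low recovery. The higher share is therefore fixed in part by the choice. The other 70 differed at most 1.77-fold, with a median of 1.14-fold for the widest gap in a gene. A gene in a row of 2 transcripts had 1078 reads in siControl library a and 20 in library b (53.1 and 0.808 CPM), so its fall rests on 1 library. A gene in a row of 1 transcript had 0 and 69 reads in the siADAR1 libraries, and the member with the lowest level had 28 and 0. All 4 stood below their siADAR1 level in the combined knockdown, a contrast that the rule used, so nothing is read from it.

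The fourth of these genes is uc021ump.1, a row of 1 transcript, which had the lowest combined knockdown level relative to siADAR1. It had 120 and 266 reads in siControl (5.91 and 10.8 CPM), 168 and 6 reads in siADAR1 (6.68 and 0.203 CPM), and 0 and 0 reads in the combined knockdown. The siADAR1 libraries of uc021ump.1 spanned a range that overlapped siControl, and it is the only 1 of the 74 not called lower with siADAR1 by that edgeR test. With 3 reads over both combined knockdown libraries as the limit that a count of 0 allows (0.0569 CPM), it was at least 146-fold lower there than in siControl. It was at least 60.5-fold lower than the siADAR1 mean, but at least 3.57-fold lower than siADAR1 library b alone. Reads shared between near-identical transcripts are divided by a model in estimated counts, and whether that bears on these 4 rows was not tested.

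Further falls with siStaufen1 were the next question. In the combined knockdown, 25 of the 74 genes (33.8%) stood below their siADAR1 mean and 49 above it, and over all rows above the threshold 61.3% stood below. Under TMM scaling these were 22 of the 74 and 49.3% of all rows, and with DESeq2 size factors 22 and 48.6%. Without the 4 genes whose libraries differed over 4-fold, 21 of 70 stood below. Of the 74, 43 (58.1%) lay within 1.2-fold of siADAR1, 17 were at least 1.2-fold lower and 14 at least 1.2-fold higher. A recovery between -0.1 and 0.1 was found in 20 genes.

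Replicates separated the groups in only a part of these. Both combined knockdown libraries lay below both siADAR1 libraries in 19 of the 74 genes (25.7%), where 51.1% of all rows did, and above them in 32 (43.2%), where 29.5% of all rows did. In 23 genes (31.1%) the libraries overlapped, against 19.4% of all rows. The rule puts an upper limit on the rise and none on the fall, so these shares are fixed in part by the choice. Nor do they set the unrescued genes apart from others that fell, since the partly and largely rescued rows lie above siADAR1 by definition.

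By the same edgeR quasi-likelihood test on TMM-scaled counts, 8 of the 74 genes fell further in the combined knockdown against siADAR1 (21.5% of the genes tested were called lower) and 22 rose (21.7% were called higher). The other 44 were not called, which does not show that they did not differ. Of the 8, 2 are rows of 1 transcript with libraries over 4-fold apart, uc021ump.1 and the gene with 0 and 69 reads in siADAR1. The count of 8 was 5 without siADAR1 replicate b and 5 without either combined knockdown replicate a or b, where the share of all genes tested also dropped, to 14.8%, 14.7% and 15.7%. It was 6 without siADAR1 replicate a (15% of all genes tested) and 6 by DESeq2 (16.1%), which called 19 of the 74 higher (17.8% of all genes tested). Scaled to library totals, as the rule is, 12 genes were called lower and 13 higher, where 30% and 15% of all genes tested were. The 22 rises measured 0.17 to 0.93 (log2) in the edgeR model, and 14 of them were among the 20 genes with the highest siControl CPM. Small rises are called more readily where reads are many. At low counts, rises of 0.74 and 0.53 were not called by this test (adjusted p 0.153 and 0.277). The 14 therefore do not show that a partial return is a trait of abundant genes.

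Among the 6 further falls with close libraries, that of the gene ranked seventh in read share rests on the most reads. This row of 1 transcript had 388 and 348 CPM with siControl, 174 and 173 CPM with siADAR1, and 97.0 and 103 CPM with both siRNAs. Its groups form 3 separate steps, a fall of 2.13-fold and then of 1.73-fold. A gene in a row of 5 transcripts took like steps, from 81.9 and 86.3 CPM to 37.1 and 34.2 CPM and then to 21.2 and 23.2 CPM. The second step was 1.60-fold.

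The 4 other further falls had fewer reads. A row of 2 transcripts went from 11.6 and 13.2 CPM through 6.04 and 5.29 CPM to 3.02 and 2.63 CPM, so it fell 2.16-fold and then 1.97-fold. That second step was the largest among the 70 genes with close libraries. A row of 1 transcript went from 8.97 and 8.69 CPM through 3.70 and 4.37 CPM to 2.45 and 1.81 CPM, a second step of 1.86-fold. The remaining pair, in rows of 2 and 3 transcripts, fell from 18.0 and 19.7 CPM in the siControl mean to 6.13 and 6.80 CPM and then to 3.77 and 4.84 CPM. In each of these 4 genes both combined knockdown libraries lay below both siADAR1 libraries. The same held in 51.1% of all rows above the threshold, and the 4 were picked by this contrast. By the edgeR quasi-likelihood test the row of 3 transcripts was called at an adjusted p of 0.0454, the others at 0.00519 or less.

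**Figure D3:**
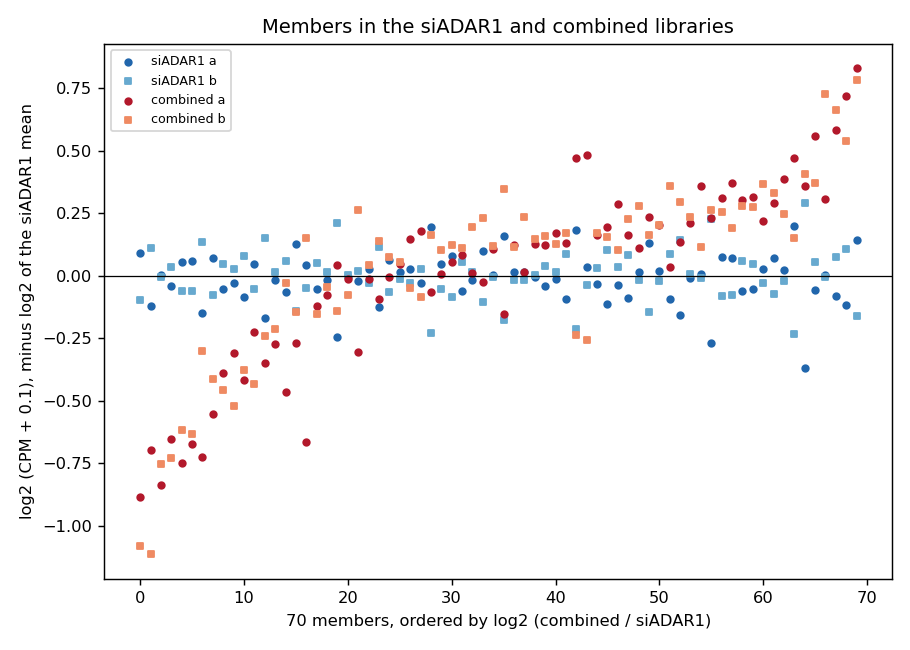
The 70 unrescued genes whose libraries differed by less than 4-fold are ordered along the horizontal axis by the log2 ratio of the combined knockdown to siADAR1. The vertical axis gives each siADAR1 and combined knockdown library as log2 of CPM plus 0.1 minus log2 of the siADAR1 mean. At the left the combined knockdown libraries reach about -1, in the middle they mix with the siADAR1 libraries, and at the right they reach 0.81 in the mean for uc003dqb.2.

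The choice was repeated with 1 library per group, and the result read in the libraries not used. With the a libraries alone 75 rows met the rule, and 57 of them are among the 74. Read in the b libraries, 71 of the 75 were lower in siADAR1 than in siControl, 56 had fallen at least 2-fold and 44 met the whole rule. Their median log2 change with siADAR1 was -1.26 in the a libraries and -1.19 in the b libraries, and the median recovery 2.92% and 10.3%. With the b libraries alone 90 rows met the rule, 59 of them among the 74. Read in the a libraries, 84 were lower, 64 had fallen at least 2-fold and 44 met the rule, with median changes of -1.28 and -1.21 and median recoveries of 9.22% and 14.6%. The median falls were thus nearly as large in libraries that took no part in the choice, while the median recoveries were higher there. The log2 rise from siADAR1 to the combined knockdown did not go one way. Its median went from 0.03 to 0.11 for the a choice and from 0.13 to 0.11 for the b choice. As the 2 libraries of a group may be technical repeats, these values do not tell how separate cultures would differ.

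Of the 74 genes, 44 met the rule in either set of libraries alone, 28 in 1 of the sets and 2 in neither. The direction between the knockdown groups was less steady than the fall, which follows from the rule. It asks for a fall of at least 2-fold but lets the 2 knockdown groups lie close together. Of the 32 rows below siADAR1 among those chosen with the a libraries, 23 were also below it in the b libraries, and of 33 chosen with the b libraries, 23 were below it in the a libraries. Among the 74, 20 were below siADAR1 in both sets and 37 above it in both. Over all rows above the threshold, 61.3% stood below siADAR1 in the mean of both libraries. The share below in both sets was not taken over all rows, so 61.3% is not a like measure for these counts. The rule's upper limit on the rise also shapes the counts, so nothing is read from them about the unrescued genes.

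The number of transcripts grouped in a row played no part in the rule. Unrescued genes had a median of 2 transcripts per row, and the partly rescued rows, the largely rescued rows and all rows above the threshold each had a median of 3. Rows of 4 or more transcripts made up 15 of the 74 unrescued genes (20.3%), 41.7% of the partly rescued rows, 40.9% of the largely rescued rows and 42.9% of all rows. Rows of 1 transcript made up 23 of the 74 (31.1%, exact 95% binomial interval 20.8% to 42.9%), 30.6% of the partly rescued rows, 20.7% of the largely rescued rows and 19.2% of all rows. Rows of 2 transcripts made up 28.4%, 9.72%, 19.7% and 19.9%. No test over genes was made of these shares, and they are descriptions of the sets.

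Seen from the rows that fell, 23 of 87 fallers with 1 transcript (26.4%) were unrescued, 21 of 68 with 2 (30.9%), 15 of 66 with 3 (22.7%) and 15 of 128 with 4 or more (11.7%). Single-transcript rows had a lower siControl level among the unrescued genes, with a median of 8.83 CPM against 27.0 CPM for the 51 rows of more transcripts, and their falls were alike (median log2 changes of -1.25 and -1.36). Level and row make-up therefore moved together within the unrescued genes. Among all rows within the middle 50% of the unrescued genes' siControl levels, 17.3% had 1 transcript and 44.8% had 4 or more. Among the 74 unrescued genes these shares were 31.1% and 20.3%, and whether level bears on them was not tested. Under TMM scaling, 40 of the 140 rows that met the rule (28.6%) had 1 transcript and 42 of the 140 had 4 or more. In the partly and largely rescued rows under that scaling 39.5% and 38.2% had 4 or more, so the gap was smaller than with library totals.

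**Figure D4:**
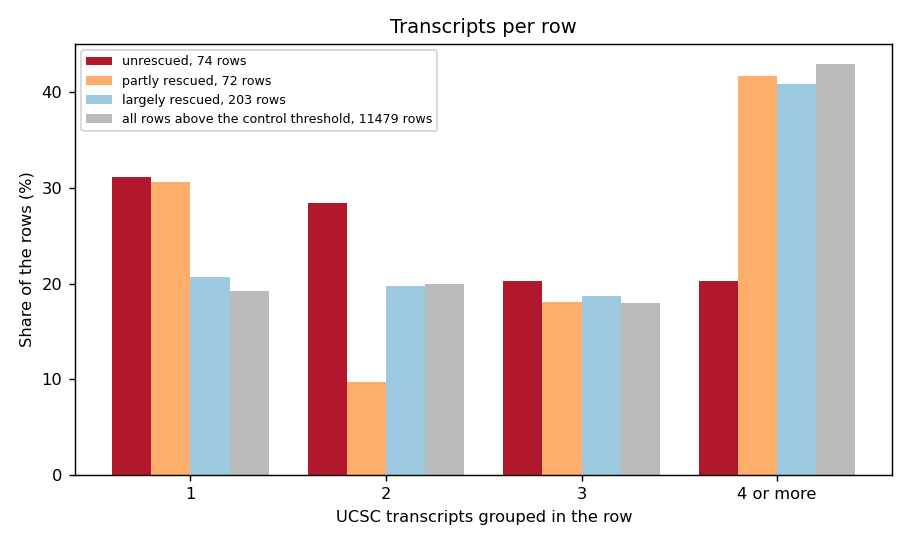
The bars give the share of rows, in percent, that group 1, 2, 3 or at least 4 UCSC transcripts, for the 74 unrescued genes, the 72 partly rescued rows, the 203 largely rescued rows and all 11479 rows above the control threshold. Rows of 4 or more transcripts make up 20.3% of the unrescued genes and 40.9% to 42.9% of the other sets.

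Genes below and above their siADAR1 level in the combined knockdown differed little in the medians of their falls. The 25 below had a median siControl level of 14.7 CPM, a median log2 change with siADAR1 of -1.25 and 28.0% rows of 1 transcript. The 49 above had 24.3 CPM, -1.33 and 32.7%. Their median levels in the combined knockdown were 26.5% and 45.0% of siControl, a gap that follows from how they were split. Compared with the rows that did recover, the unrescued genes had fallen about as far: the median log2 change with siADAR1 was -1.32, against -1.34 in the partly rescued and -1.46 in the largely rescued rows, and their median siControl levels were 19.6, 24.7 and 25.7 CPM.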

How the data were processed

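RNA was measured in 6 libraries of A172 cells, 2 per group, made with the Lexogen SENSE mRNA kit per the labels' protocols. The deposited values are estimated counts of reads per row of UCSC hg19 transcripts, whole numbers as deposited, per the file headers. RSEM 1.2.3 and edgeR are named in the submitters' processing notes with no role. Which aligner and strand setting were used is not given in the sources used here, so antisense partners and near-identical genes are uncertain. A fold change between totals-scaled CPM compares shares of reads, not amounts per cell.

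The rule was applied to counts divided by column totals. All 6 columns were used, and 0 others were left out. Groups were compared with edgeR 4.0.16 (R 4.3.3; filterByExpr at 10 reads and a total of 15, TMM factors, quasi-likelihood F test, two-sided, 1 fit over 6 libraries with 3 residual degrees of freedom), with DESeq2 1.42.0 as an alternative. Plots used Python 3.11.15 and matplotlib 3.10.9. Totals of 20291057 to 29508632 reads set the counting error of the levels, which is all that the limit for a count of 0 covers. The binomial interval is for a share of rows, treats the rows as independent draws and does not cover the error of the choice. Other alternatives were other scalings, pseudocounts and thresholds, no filter, the replicate letter as a block and each library left out.

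The members and tests were chosen with earlier results of these data known. The rule for printed IDs took the member with the highest siControl level, the one with the lowest ratio of combined knockdown to siADAR1 at 1 CPM or more in siADAR1, and the 2 with the highest ratio. Planned lists of matrix, apoptosis, cell cycle, interferon and cell type genes were not tested, since the rows carry no symbols.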

Additional observations from a re-analysis of the deposited data

How the results depend on the processing

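Under other scalings 140 (TMM) and 161 (DESeq2 size factors) rows met the rule, 71 of the 74 in each case. No filter on the control level gave 133 rows, a fall of at least 1.5-fold 227 and of at least 3-fold 20, a recovery under 0.1 gave 42 and under 0.4 gave 116, all by construction of the rule. Leaving out each library in turn gave 72 to 86 rows, and 25 to 30 of the 74 below siADAR1, against 22 under TMM or DESeq2 size factors. With a library left out, the 74 genes had median log2 changes of -1.33 to -1.27 with siADAR1. From siADAR1 to the combined knockdown the medians were 0.07 to 0.12. Over all rows above the threshold the same medians were 0.27 to 0.29 and -0.11 to -0.10. Calls with a library left out are less certain, since the lone sample of a group takes its spread from the other groups. Against siADAR1 they were 5 to 8 lower and 15 to 23 higher, where 14.7% to 24.7% and 14.6% to 24.1% of all genes tested were. Scaled to library totals, 13 were called higher, where 15% of all genes tested were. With the replicate block the calls were 74, 8, 22 and 74 (lower with siADAR1, lower and higher against siADAR1, lower against siControl). Of all 14711 genes tested, that fit called 4378, 3185, 3265 and 3772 in the same order. The letters did not pair the libraries (correlations of deviations 0.051, 0.021 and 0.0060). Rows in the middle range of levels had 17.3% single-transcript rows in place of 19.2%. Leaving out the 4 genes with discordant libraries, which left 70 and 21 below siADAR1, was chosen after seeing the data. With 2 libraries a group, genes under 10 reads in some library (3 of the 74) are the least certain.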
